A study of Homo sapiens with 6 samples.

Results

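The mitosis and spindle genes are 50 genes named by symbol, comprising the G2/M cyclins and their kinases, the spindle checkpoint, the kinetochore, the mitotic kinesins, the spindle-binding proteins and the machinery of chromosome separation and cytokinesis, together with MYBL2, FOXM1, TOP2A and MKI67. All 50 were found among the 19792 genes of the deposited table. They were chosen for what they do and not by a measured value, although earlier results of these data were known at the time. The table comes from RNA-seq of BT549 cells, a human triple-negative breast cancer line, which carried a puromycin-selected WDR5 shRNA under a tetracycline-inducible promoter. The cells were treated for a week with 0.1% DMSO as vehicle (3 cultures) or with 500 ng/ml doxycycline (DOX) to switch the shRNA on and thereby silence WDR5 (3 cultures). All 6 libraries carry the shRNA cassette, so that a response to DOX itself cannot be told apart from a response to WDR5 silencing in this design.

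The table gives for each gene a mean normalized count, which averages the 3 vehicle and the 3 DOX libraries into a single value, and values of single libraries are not given. The change between vehicle and DOX is held there only as the authors' own comparison, which was not used here. The sections below therefore describe how strongly each mitotic gene was expressed in these cells, silenced and not silenced together, and what its promoter holds. They do not say whether any of the genes differed between vehicle and DOX. No spread between cultures belongs to these means, so that the order of genes is a description without a test, and whether neighbours in that order differ was not tested. WDR5, the targeted gene, had a mean normalized count of 1143 over both groups, a value that cannot check the silencing. Mesenchymal markers of the line were abundant, with VIM at 47782 and CD44 at 48038 in mean normalized count, whereas EPCAM was at 1.30 and the hormone receptors ESR1 and PGR at 0.790 and 0.801. KRT18 reached 435 and ERBB2 reached 1221, and markers of leukocytes (PTPRC) and endothelium (PECAM1) stood at 44.7 and 2.86.

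Entry into mitosis is driven by CDK1 bound to cyclins A and B, which the CDC25 phosphatases activate by removing inhibitory phosphates. Aurora and polo-like kinases then build the bipolar spindle, kinesins move and focus its microtubules, and the checkpoint proteins hold back anaphase until every kinetochore is attached. CDC20 and UBE2C next direct the anaphase-promoting complex to ubiquitinate securin and cyclin B, after which separase cuts cohesin and the cell divides. Many of the genes encoding these proteins peak together in G2 and M. In quiescent and G1 cells they are held down by the DREAM complex, which binds the cell cycle genes homology region (CHR) of their promoters, and in G2 they are switched on by MYBL2 and FOXM1 together with NF-Y at CCAAT boxes. High expression of the group is a known mark of proliferating tumor cells.

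The promoter sequences show these elements at close range. The 6 stretches printed here are the 150 bases before the transcription start of the 6 most highly expressed members, per kb, that had a whole CHR match within the 60 bases before the start and, within 150 bases before the start, a CCAAT box ahead of it, and they are given to show how the elements lie to each other. Sequences and starts are those of RefSeq on GRCh38.p14, read 5′ to 3′ on the strand of the gene. Capitals mark each match to the CHR letters TTTGAA or TTCGAA and to the CCAAT box, on either strand, so that a box on the opposite strand reads ATTGG.
CDC25B: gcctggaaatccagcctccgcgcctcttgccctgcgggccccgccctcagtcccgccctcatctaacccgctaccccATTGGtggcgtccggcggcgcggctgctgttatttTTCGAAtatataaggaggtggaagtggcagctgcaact
CDK1: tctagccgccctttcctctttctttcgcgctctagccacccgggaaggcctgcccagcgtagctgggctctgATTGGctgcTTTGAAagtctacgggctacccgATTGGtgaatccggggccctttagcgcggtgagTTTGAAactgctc
CDCA8: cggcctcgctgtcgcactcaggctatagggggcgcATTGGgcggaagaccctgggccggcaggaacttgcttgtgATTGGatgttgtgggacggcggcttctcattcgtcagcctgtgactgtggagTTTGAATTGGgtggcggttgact
HMMR: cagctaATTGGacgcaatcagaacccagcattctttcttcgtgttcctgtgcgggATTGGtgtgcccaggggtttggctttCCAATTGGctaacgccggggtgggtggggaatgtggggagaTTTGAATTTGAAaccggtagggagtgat
PRC1: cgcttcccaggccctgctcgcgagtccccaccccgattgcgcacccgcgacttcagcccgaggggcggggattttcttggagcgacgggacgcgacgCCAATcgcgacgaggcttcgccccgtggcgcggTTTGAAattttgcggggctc
PLK1: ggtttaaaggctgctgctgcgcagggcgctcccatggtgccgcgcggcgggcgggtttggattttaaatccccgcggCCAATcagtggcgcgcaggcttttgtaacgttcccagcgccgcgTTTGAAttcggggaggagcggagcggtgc
These stretches lie at chr20:3796160-3796309 for CDC25B, chr10:60778328-60778477 for CDK1, chr1:37692366-37692515 for CDCA8, chr5:163460482-163460631 for HMMR and chr16:23678739-23678888 for PLK1, all on the plus strand. That of PRC1, at chr15:90994536-90994685, is on the minus strand.

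In CDC25B the CHR match was TTCGAA, beginning at base -38, where the base before the start is -1. The nearest CCAAT box of CDC25B ended 30 bases before that match. CDK1 and PRC1 each had 28 bases between the last CHR match before the start and the nearest box ahead of it. PLK1 and HMMR each had 39 such bases and CDCA8 had 47. HMMR carried 2 CHR matches side by side, and a pair of the 4 boxes shown overlapped on opposite strands. In CDCA8 a further box overlapped the CHR match by its first base. The arrangement by which these stretches were picked was found in 15 of the 42 members with promoter sequence at hand. Its share among other genes is not given here, so that whether it is commoner in the members was not tested. In these 15 the median number of bases between box and CHR was 28.0, with a range from 4 in KIF23 to 107 in CENPA. The spacings were scattered, and only 3 of the 15, those of CDC25B, CDK1 and PRC1 printed above, were from 25 to 35 bases. Left out of the 15 were SPC25, SGO1 and CDCA3, in which a CHR match began at base -3 and ran past the start, with a box ahead of it.

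A promoter window, from 250 bases before to 50 after the start, was at hand for 42 of the 50 members, and the other 8 are AURKA, BUB3, TTK, TPX2, BIRC5, RACGAP1, UBE2C and FOXM1. Of the 42 windows, 33 held a CHR match (78.6%), compared with 1505 of the 13140 windows of the other genes in the table (11.5%). With TTTGAA alone as the motif, 30 member windows matched (71.4%) and 10.1% of the others. A CCAAT box was present in 33 member windows (78.6%) and in 36.1% of the others. Both elements were present in 27 member windows (64.3%) and in 4.69% of the others. At least 2 boxes were found in 19 member windows (45.2%) and in 12.6% of the others. The median GC content of member windows was 61.3%, against 65.0% in the other windows. These shares are a description without a test, and a match is a stretch of letters and not a measured binding site.

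In the members the matches gathered near the start. A CHR match began within the 50 bases before the start in 21 of 42 member windows (50%) and in 1.67% of the others. In the 50 bases after the start the shares were 26.2% and 1.55%. In the 50 bases farthest upstream, by comparison, 1 member window (2.38%) and 394 of the other 13140 windows had a match. CCAAT boxes gathered further upstream, with 61.9% of member windows and 16.3% of the others holding one between 100 and 51 bases before the start.

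**Figure D1:**
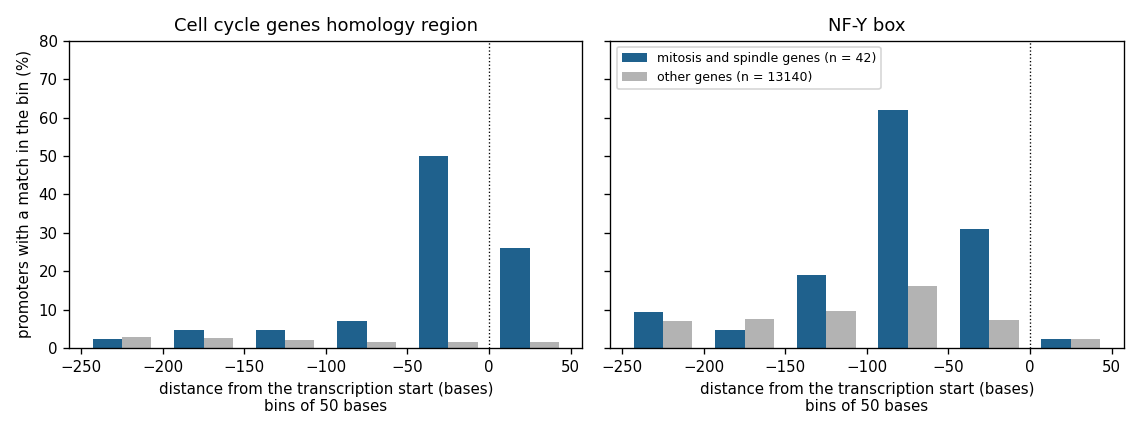
Share of promoters (vertical axis, %) with a CHR match (left) or a CCAAT box, the element bound by NF-Y (right), in bins of 50 bases by distance from the transcription start (horizontal axis), for 42 mitosis and spindle genes (blue) and 13140 other genes (grey). Members reach 50% for CHR in the bin just before the start and 61.9% for the CCAAT box in the bin from 100 to 51 bases before it.

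The members without a CHR match were CCNA2, CCNB1, AURKB, NEK2, KIF20A and PTTG1, which held a CCAAT box, and KIF2C, CENPE and MYBL2, which held neither element. Conversely, PLK4, BUB1B, KIF15, NDC80, NUF2 and ANLN had a CHR match and no box. Variant CHR letters were not searched. The window of AURKB lies around a start 326 bases from that of its reference transcript, whereas the other 41 windows coincide with it. The classes overlapped in level. The 27 members with both elements had a median of 650 normalized counts per kb of transcript, and ranged from 138 to 5272. The 6 members with the box alone had a median of 1309 per kb (777 to 4519), and the 6 with CHR alone 746 (221 to 2276). For the 3 with neither element the median was 1093, and for the 8 without a window 1323. Whether the classes differ was not tested.

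The same elements were counted in other lists of cell cycle genes. A list of 78 further mitosis genes comprised kinetochore subunits, the anaphase-promoting complex, condensin, the 5 genes of the MuvB transcription complex and others. Of these genes 68 had a window, and 32 of the windows held a CHR match (47.1%) and 20 held both elements (29.4%). Among them were the genes of the spindle proteins ASPM, NUSAP1 and KIFC1 and of the midbody protein CEP55. The anaphase-promoting complex subunits stood lower, with a CHR match in 2 of 14 windows (14.3%) and both elements in 0. Of 52 DNA replication genes, which act earlier in the cycle, 43 had a window and 2 of these held a CHR match (4.65%), whereas 53.5% held a CCAAT box. MCM6, a subunit of the replicative helicase, was the replication gene with both elements.

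The mitotic genes were strongly expressed as a group. Their mean normalized counts ranged from 353 for SPC25 to 16445 for CDC25B, with a median of 2857, and summed to 184501, which is 0.695% of the sum over all genes although members are 0.253% of the genes listed. Since longer transcripts yield more reads, levels of different genes were compared as mean normalized count per kb of the gene's reference transcript. On this scale the median member had 925 normalized counts per kb, which lay above 84.0% of the 13017 genes that had a mean normalized count of at least 10 and a known length, and whose own median was 208. The upper quartile of those genes was 583 per kb, and 33 of the 50 members (66.0%) were above it. A further 16 were between the median and the upper quartile, and ESPL1 alone was below the median.

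**Figure D2:**
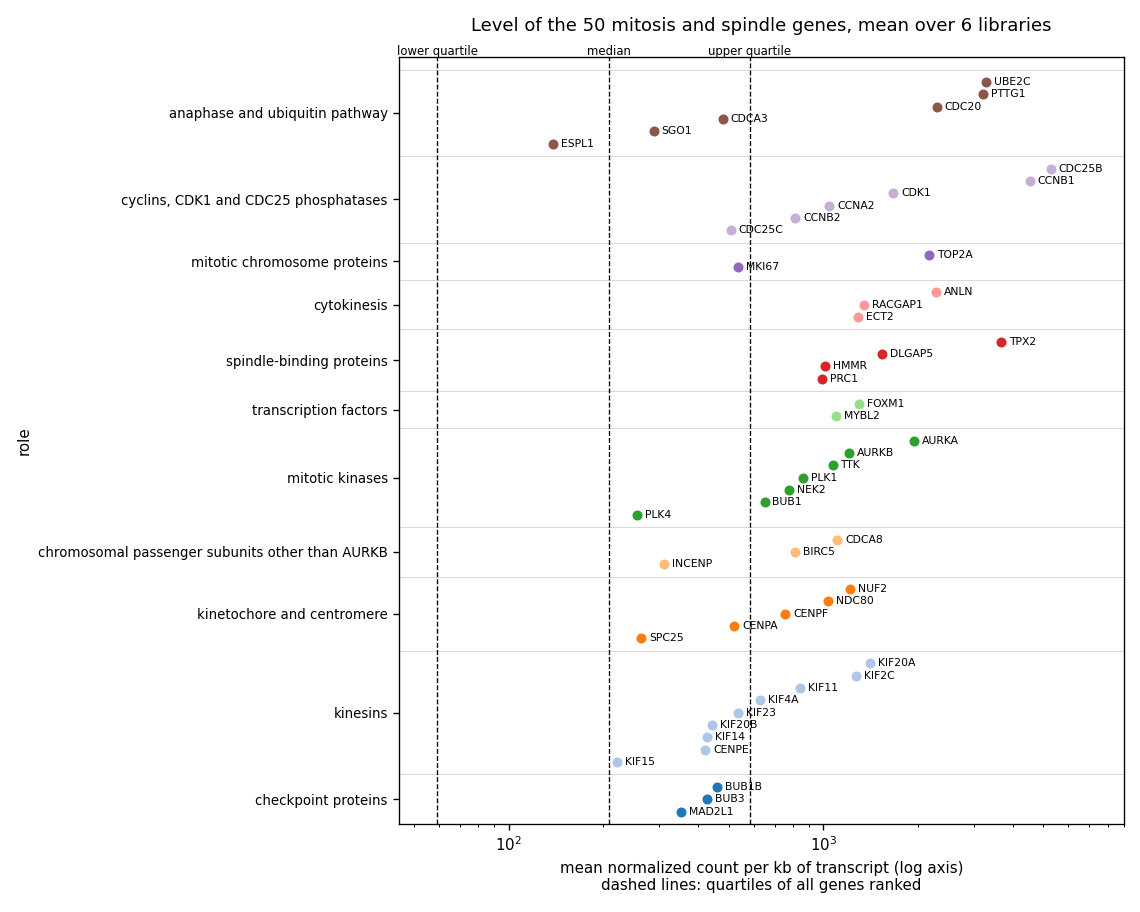
Level of each of the 50 members (mean normalized count per kb of transcript over 6 libraries, log axis), grouped by role on the vertical axis, with 1 point a gene and dashed lines at the quartiles of all 13017 genes ranked. CDC25B (5272) and CCNB1 (4519) are at the right end, and ESPL1 (138) is the only point left of the median line.

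The 5 members with the highest counts, CDC25B, TPX2, TOP2A, ANLN and CCNB1, held 33.3% of the members' summed counts. Compared with the 2 lists nearest in function, the median of the members stood higher. The 78 other mitosis genes had a median of 399 per kb and 28 of them (35.9%) exceeded the upper quartile of all genes. The 52 DNA replication genes had a median of 410 per kb, with 19 (36.5%) above the upper quartile. Within the other mitosis genes, condensin had 4 of 5 subunits above the upper quartile, led by SMC4 at 2113 per kb. The anaphase-promoting complex had 6 of 14 there, and the inner kinetochore CENP genes 3 of 13. The MuvB transcription complex, also counted among the 78, had 1 of 5 there and a median of 271 per kb. CCNB3, a cyclin of the germ line, was the lowest of the 78 at a mean normalized count of 5.27. The 6 MCM helicase genes, which are among the replication genes, had a median of 1262 per kb. These smaller lists were formed after the levels had been seen, and the 2 larger lists were chosen with earlier results of these data known.

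**Figure D3:**
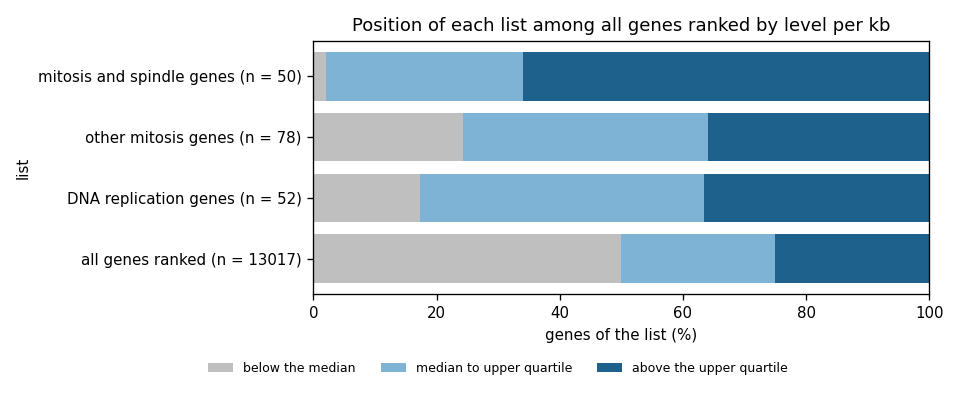
Share of each list (horizontal axis, %) that was below the median, between the median and the upper quartile, or above the upper quartile of all 13017 genes ranked by mean normalized count per kb, for the lists on the vertical axis. Above the upper quartile were 66.0% of the mitosis and spindle genes, 35.9% of the other mitosis genes and 36.5% of the DNA replication genes.

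Among the cyclins and their activators, CDC25B, on chromosome 20 from 3786772 to 3806121 (GENCODE 44, GRCh38), was the most highly expressed member at 5272 normalized counts per kb. It encodes a phosphatase that starts CDK1 activation at the centrosome. CDC25C, a phosphatase of the same family that acts on CDK1 in full mitosis, stood at 508 per kb, 10.4 times lower. CCNB1, the main mitotic cyclin, on chromosome 5 from 69167135 to 69178245, had 4519 per kb and CCNB2, the B-type cyclin found at the Golgi, had 815, a ratio of 5.55 that became 9.33 with the longest transcript of each gene as its length. CDK1 itself was between them at 1666 per kb, and CCNA2, the cyclin of S phase and early mitosis, was at 1044.

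The mitotic kinases spanned 256 to 1945 per kb. AURKA, which acts at spindle poles, was the highest, and TPX2, the spindle protein that activates AURKA, had 3669 per kb, behind only CDC25B and CCNB1 among the members. AURKB, the kinase of centromeres and the midzone, stood at 1208 and PLK1 at 860. TTK and BUB1, the kinases that load the checkpoint at kinetochores, had 1069 and 650, and NEK2, which separates centrosomes, had 777. PLK4, the kinase of centriole duplication, was the lowest of the kinases at 256 per kb. Of the 7 kinase genes, 6 exceeded the upper quartile of all genes.

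BUB1B, BUB3 and MAD2L1 bind CDC20 in the complex that holds back anaphase. Their genes were of moderate level on this scale, with BUB1B at 458, BUB3 at 427 and MAD2L1 at 352 per kb, and all 3 lay below the upper quartile. The reference transcripts of BUB3 and MAD2L1 are 7.70 and 5.23 kb long, although their coding sequences are 0.98 and 0.61 kb. Per kb of coding sequence, BUB3 and MAD2L1 ranked above 88.2% and 86.8% of the genes with a coding sequence. Per kb of transcript they ranked above 67.8% and 62.9% of all genes ranked. BUB1B moved the other way, from 69.5% per kb of transcript to 50.1% per kb of coding sequence. Which transcripts the cells used was not tested.

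**Figure D4:**
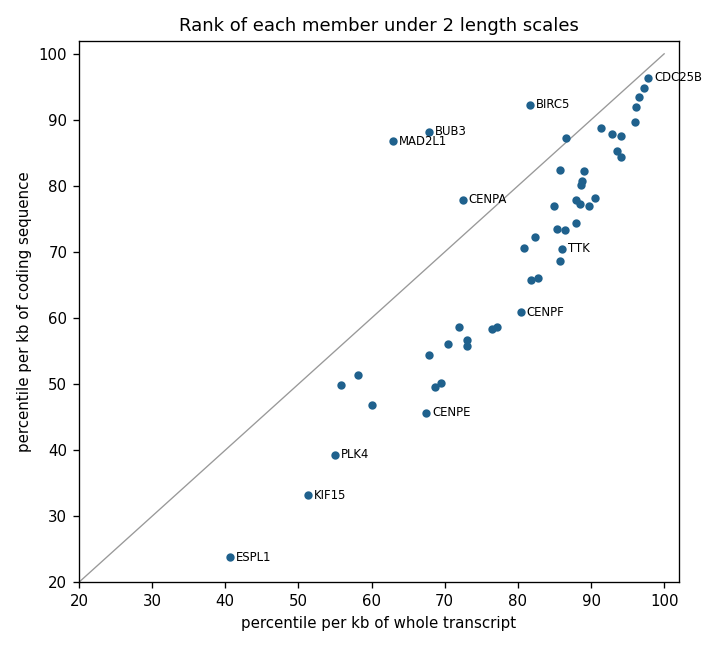
Percentile of each of the 50 members when the mean normalized count is divided by the length of the whole reference transcript (horizontal axis) or by its coding length (vertical axis), with a line of equal values. The horizontal axis ranks members among all 13017 genes, and the vertical axis only among those with a coding sequence. MAD2L1 and BUB3 lie far above the line, and 45 of the 50 members lie below it.

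For the genes of anaphase, UBE2C, the ubiquitin-conjugating enzyme of the anaphase-promoting complex, and its substrate securin, encoded by PTTG1, had 3281 and 3221 per kb from short transcripts of 0.78 and 0.71 kb. CDC20, the activator of the complex, followed at 2288. CDCA3, a mitotic entry factor, was at 478, and SGO1, which protects centromeric cohesin, was at 289. ESPL1, which encodes separase, lies on chromosome 12 from 53268299 to 53293638, and at 138 per kb it was the lowest of the 50. Securin mRNA stood 23.3 times above separase mRNA per kb, and 2.52 times above it in counts not divided by length. The annotation names 25 copies of 15 members, UBE2C and PTTG1 among them. Of these copies only UBE2CP5 and PTTG3P are listed in the table, at 72.5 and 13.1 in mean normalized count. Reads of any of the copies may be shared with the parent gene.

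The kinesin genes ranged from 221 per kb for KIF15 to 1410 for KIF20A, a motor of the central spindle. KIF15 can keep spindle poles apart when KIF11 is blocked. KIF2C, a microtubule depolymerase, had 1269 and KIF11, the motor that pushes spindle poles apart, had 844. KIF4A, a chromosome-bound motor, had 629. Beside KIF15, the kinesins below the upper quartile were KIF23 at 537, KIF20B at 442, KIF14, which acts in cytokinesis, at 426 and CENPE, the motor that brings chromosomes to the spindle equator, at 421. Among the spindle-binding proteins, DLGAP5, which stabilises kinetochore fibres, stood at 1537, HMMR, a protein of spindle poles, at 1010 and PRC1, the bundler of midzone microtubules, at 990. The PRC1 value is uncertain, since the annotation holds a second gene on the same strand that shares 88.4% of the exon bases of its transcript.

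At kinetochores and centromeres, NUF2 and NDC80, which pair in the microtubule-binding rod, had 1217 and 1034 per kb. Their partners SPC25 and SPC24, the pair at the other end of the rod, had 263 and 367. CENPF, a large protein of the outer kinetochore, reached a mean normalized count of 7787 on a transcript of 10.29 kb, which is 757 per kb. CENPA, the histone H3 variant that marks centromeres, stood at 521. Of the chromosomal passenger complex, AURKB had 1208, CDCA8 1104 and BIRC5 810 per kb of transcript, while INCENP, the scaffold that binds the kinase to the others, was at 312, 3.87 times below AURKB. In counts not divided by length AURKB stood 1.17 times above INCENP.

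**Figure D5:**
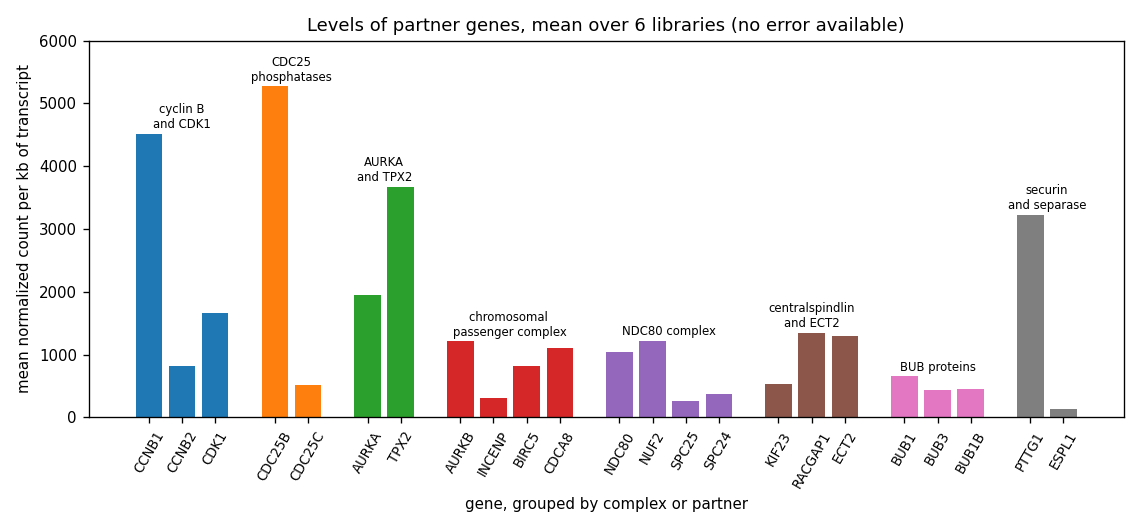
Mean normalized count per kb of transcript (vertical axis, from 0) for genes whose products work together, grouped by complex on the horizontal axis. The bars are means over all 6 libraries and have no error. Large gaps stand between PTTG1 (3221) and ESPL1 (138) and between CDC25B (5272) and CDC25C (508).

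ANLN, RACGAP1 and ECT2, the 3 genes grouped under cytokinesis, exceeded the upper quartile. ANLN, which organises the contractile ring, had 2276 per kb. RACGAP1 and ECT2, the regulators that position and activate RhoA at the cleavage plane, had 1345 and 1291, whereas KIF23, the kinesin that forms centralspindlin with RACGAP1, had 537, a ratio of 2.51. The transcription factors FOXM1 and MYBL2 stood at 1301 and 1093 per kb. TOP2A, the topoisomerase that disentangles sister chromatids, had 2168 per kb. MKI67, the proliferation marker that coats mitotic chromosomes, had a mean normalized count of 6830, above 94.6% of genes, but 537 per kb on its transcript of 12.72 kb.

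The members were spread over 17 chromosomes, with 7 on chromosome 1 and 5 each on chromosomes 5, 10 and 20. KIF20A and CDC25C, on chromosome 5 from 138178719 to 138187723 and from 138285269 to 138338355, were the members closest to each other, 97.5 kb apart and on opposite strands. Their levels were 1410 and 508 per kb, and of the pair only CDC25C had a CHR match.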

How the data were processed

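RNA-seq was performed by the authors on triplicate cultures of BT549 cells with an inducible WDR5 shRNA. By the paper's methods and the labels, the authors prepared stranded poly(A) libraries, aligned reads to GRCh38 with STAR, and normalized and compared gene counts with DESeq2. The read counter, annotation and filter on low counts are not given in the sources used here. What the authors deposited as level is a signal unit, each gene's size-factor-scaled count averaged over the 6 libraries. The other 5 deposited columns hold the authors' own comparison of DOX with vehicle (log2 fold change, standard error, statistic, p-value and adjusted p-value). They were not used, and an own test of DOX against vehicle could not be made because it needs per-library values. Depth per library is thus unknown.

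Gene positions and lengths came from GENCODE 44 on GRCh38, with the Ensembl canonical transcript as reference transcript. Of 19792 symbols, 17729 matched directly, 579 through an older symbol and 1484 not. Genes were ranked over the 13017 with a known length and a mean normalized count of at least 10. Promoters were RefSeq windows of 250 bases before to 50 after the start, 1 per gene, taken nearest the canonical start. Motifs were searched on both strands. The ranks and the motif search were run on simulated data with known answers. The simulated promoters held only C and G apart from the planted CHR letters, so that a false match could not arise by chance. The simulated high genes were set above all others, and CCAAT boxes were not simulated. The alternatives were other length scales, other sets of genes ranked, 1 strand, and a shorter window. All members are named by role, and partner genes are set side by side. Members and lists were chosen with earlier results of these data known. Protein sequence features were planned and were not analysed here. Computation used Python 3.11.15, numpy 2.4.6, pandas 2.3.3, scipy 1.17.1 and matplotlib 3.10.9.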

Additional observations from a re-analysis of the deposited data

How the results depend on the processing

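The median member lay above 84.0% of genes per kb of transcript, above 73.9% per kb of coding sequence, above 88.6% when all genes listed were ranked, and above 83.1% among protein-coding genes only, a set chosen after seeing the data. The number of members above the upper quartile was 33, and between 24 (coding length) and 43 (all genes listed) under the alternatives. With coding length in place of transcript length, 45 of 50 members ranked lower and 31 moved by over 10 percentile points. These ranks were among genes with a coding sequence only, so that the set of genes ranked changed along with the length. Among protein-coding genes only, per kb of transcript, all 50 members ranked lower, by at most 2.8 points. The ratio of BUB1 to BUB3, 1.52 per kb of transcript, reversed to 0.225 per coding kb and to 0.744 when counts were not divided by length, and the ratios of the other partner pairs kept their direction under the length alternatives, although not their size. Not divided by length, the ratio of AURKB to INCENP went from 3.87 to 1.17, that of PTTG1 to ESPL1 from 23.3 to 2.52 and that of TPX2 to AURKA from 1.89 to 3.22, and with the longest transcript that of CCNB1 to CCNB2 went from 5.55 to 9.33. The share of other promoters with a CHR match, 11.5%, was 10.2% among genes whose mean count reached 10 and 6.99% on the gene's own strand. It was 6.48% from 150 bases before the start and 10.0% among genes above the upper quartile, the last chosen after seeing the data. In member promoters the CHR share, 78.6%, was 69.0% on the own strand and 76.2% from 150 bases before the start. The share of other promoters with a CCAAT box, 36.1%, was 20.7% on the own strand, 28.4% in the shorter window and 38.7% among genes above the upper quartile, and that of member promoters fell from 78.6% to 40.5% on the own strand. No paired analysis was possible because the deposited means pool all 6 libraries. For the same reason edgeR, the alternatives to it and leaving out a culture were not run, and no level has an error.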
